A study of Mus musculus with 6 samples.

Results

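Basement membranes are thin sheets of matrix that lie under endothelium and around pericytes, smooth muscle cells and heart muscle cells. Laminin trimers and a network of type IV collagen form their scaffold, and nidogens and the heparan sulfate proteoglycan perlecan link the laminin and collagen layers. After infarction, capillaries and muscle cells bordering the scar rebuild these sheets while fibrillar collagen fills the lost muscle. Described here are 10 genes for these proteins, chosen by name with earlier results of these data known. They include the type IV collagen chains Col4a1 and Col4a2 and the vessel-associated collagens Col15a1 and Col18a1. The others are the laminin chains Lama4, Lamb1 and Lamc1, the nidogens Nid1 and Nid2, and Hspg2, which encodes perlecan. All 10 were among the 16199 gene symbols of the table and among the 14025 genes tested.

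The RNA came from infarcted mouse myocardium taken 7 days after the left anterior descending coronary artery was tied off, an operation that both groups had. One group of 3 libraries was labelled wild type and the other, also of 3 libraries, Itih5 knockdown. Itih5 encodes a secreted hyaluronan-binding protein, and the study asked whether it affects scarring after infarction through immune cells. The sources used here do not give how the knockdown was made, its cell type or promoter, or the strain, sex and age of the mice. The labels do not state whether each library was a different mouse. P-values therefore cover only the spread among these libraries, which may be technical.

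Itih5 itself was not lower in the labelled knockdown libraries. It stood at 9.73, 13.1 and 17.2 in wild-type replicates 1, 2 and 3, with 18.4, 10.5 and 19.96 under the knockdown label (log2 difference 0.26, limma adjusted p = 0.645; exact two-sided permutation p = 0.5, where 0.1 is the smallest that 3 against 3 libraries allow). Leaving out each library in turn gave 0.06 to 0.52, with 0.15 when replicate 1 of the labelled knockdown group was left out. Directions below therefore refer to the labels. Levels are the deposited TPM-like values, in which gene length is taken into account, and the number of reads behind them is unknown. A log2 difference is the labelled knockdown mean minus the wild-type mean of log2(value + 1). The library labelled knockdown replicate 1 stood apart. Its 11 heart muscle markers summed to 27040, against 7640 to 12880 in the other libraries of its group and 8082 to 9048 in wild type. Mitochondrially encoded genes took 32.6% of its summed values, against 10.9% to 20.2% in the other 5 libraries. For each of the 10 genes and each gene list whose log2 difference or median changed sign or moved by over 1.5 times without this library, the value without it is given.

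Col4a1 and Col4a2 are neighbours on chromosome 8, transcribed away from each other. Of all genes ranked, Col4a2 had the pattern across libraries most like that of Col4a1, and the start regions of both are shown. Other genes such as Fez2 were nearly as alike, as given below. Whether the start regions bear on this likeness was not tested. In GENCODE M21 (GRCm38), Col4a1 lies on the minus strand from 11198423 to 11312826 and Col4a2 on the plus strand from 11312805 to 11449287. The annotated genes overlap by 22 bases at their start ends. The windows below, from RefSeq on GRCm38.p6, run from 250 bases before to 50 bases after each annotated start, 5′ to 3′ on the strand of the gene. Capitals mark the 78 bases that the windows share, read on opposite strands (chr8:11312777-11312854).
Col4a1 (chr8:11312777-11313076, minus strand): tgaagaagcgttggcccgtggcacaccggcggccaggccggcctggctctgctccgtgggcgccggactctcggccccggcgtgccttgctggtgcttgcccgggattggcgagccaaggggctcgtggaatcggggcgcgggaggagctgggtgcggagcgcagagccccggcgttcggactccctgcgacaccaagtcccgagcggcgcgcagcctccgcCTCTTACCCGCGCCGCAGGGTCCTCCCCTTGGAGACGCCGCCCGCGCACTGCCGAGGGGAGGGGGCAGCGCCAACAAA
Col4a2 (chr8:11312555-11312854, plus strand): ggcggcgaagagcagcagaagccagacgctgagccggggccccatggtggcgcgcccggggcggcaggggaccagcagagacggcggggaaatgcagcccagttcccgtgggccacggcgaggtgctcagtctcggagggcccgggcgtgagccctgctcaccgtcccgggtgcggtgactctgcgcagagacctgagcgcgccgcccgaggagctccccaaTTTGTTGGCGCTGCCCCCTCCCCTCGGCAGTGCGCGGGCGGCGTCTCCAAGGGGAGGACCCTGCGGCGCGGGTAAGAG
Both annotated starts fall inside the shared stretch, 21 bases apart, at 11312826 for Col4a1 and at 11312805 for Col4a2. A window that overlaps one of the other strand occurs for 10.8% of the 32817 distinct start windows in the table. Short motifs were searched on both strands, with overlapping matches counted. The GC box GGGCGG occurs 1 time in the Col4a1 window and 3 times in that of Col4a2, with 1 match inside the shared stretch, and in 35.7% of all windows. The CCAAT box CCAAT occurs 1 time in each window and 0 times in the shared stretch, and in 37.4% of all windows. The TATA box TATAAA is in neither window and in 13.6% of all. The GC content was 74.0% for Col4a1 and 73.7% for Col4a2, against a median of 52.7% over all windows. Of the 10 genes, 7 had at least 1 window in the table. Lama4, Lamc1 and Nid2 had no entry.

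The 10 genes were well expressed, and for 8 of them the fitted log2 difference between the groups was at most 0.11 in size. The order by mean over the 6 libraries was Col4a1 (809), Col4a2 (458), Col15a1 (312), Nid1 (271), Lamc1 (152), Hspg2 (143), Lamb1 (129), Lama4 (93.6), Col18a1 (84.5) and Nid2 (31.0). Between neighbours in that order the ranges over the libraries overlapped for Col15a1 and Nid1, for Lamc1 and Hspg2, for Hspg2 and Lamb1, and for Lama4 and Col18a1. The highest library exceeded the lowest by 1.19 times for Nid1 up to 1.46 times for Nid2, and by 1.92 times for Col18a1.

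None of the 10 genes passed the test. Of all 14025 genes, 0.0% passed limma's moderated test after Benjamini-Hochberg adjustment, and 14.8% had an unadjusted p under 0.05 (8.29% higher and 6.55% lower; 1162 and 919 genes, or 458 and 1398 with each library rescaled to a sum of 1000000). Among the members 0 passed, and 0 had an unadjusted p under 0.05. By group means 7 members were higher and 3 lower in the labelled knockdown libraries. Their median log2 difference was 0.03, beside 0.00 over all tested genes. Without the library labelled knockdown replicate 1, 3 were higher and 7 lower and the median was -0.06. With each library rescaled to a sum of 1000000, which moved the median of all genes to -0.13, 9 members were lower, and 7 of the 10 were above that median, as they were above the median of all genes in the deposited values. For the 8 members other than Col15a1 and Col18a1 every 95% interval of the log2 difference lay between -0.31 and 0.39.

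**Figure D1:**
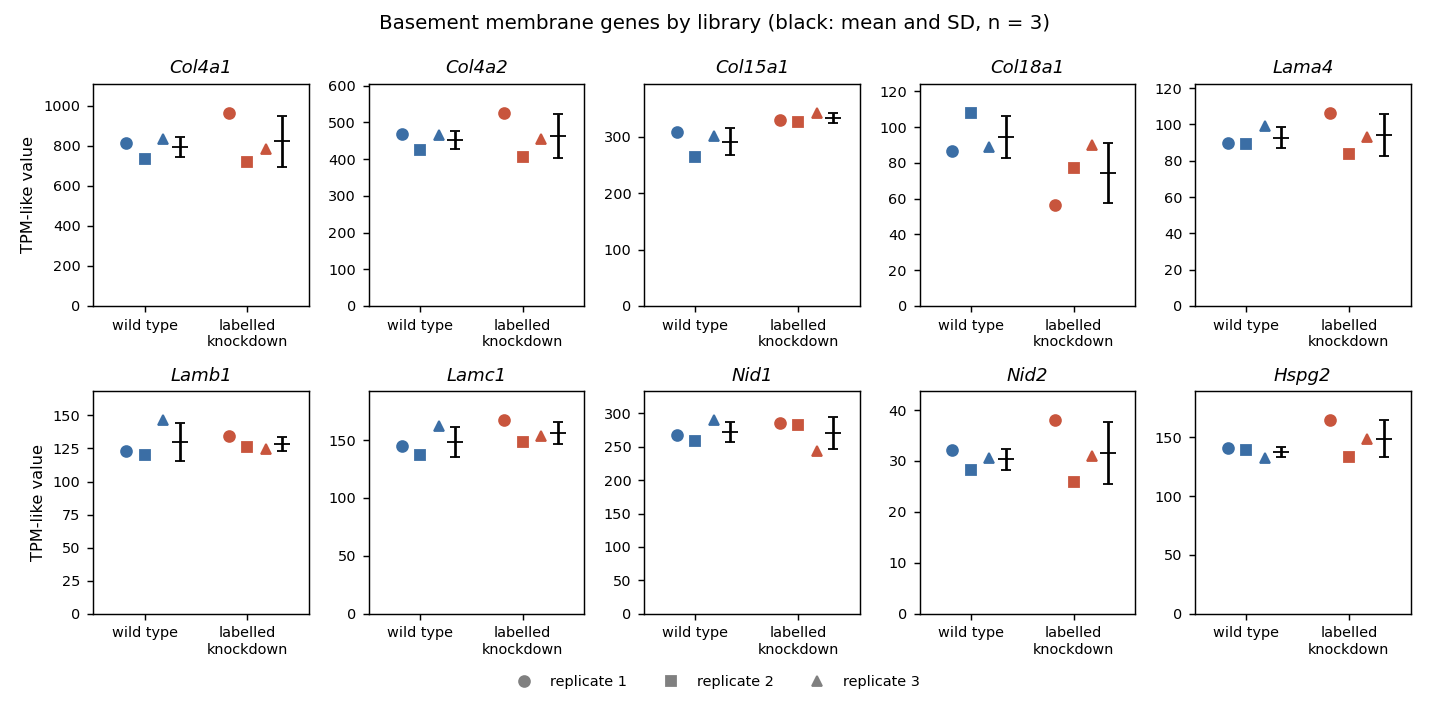
TPM-like value (vertical axes, from 0) of each of the 10 genes in 3 wild-type (blue) and 3 labelled knockdown libraries (red), with replicate 1 as circles, 2 as squares and 3 as triangles, and the mean and SD in black. The groups overlap for every gene except Col15a1, where the labelled knockdown libraries sit between 327 and 342, above wild type at 264 to 309.

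Col4a1 and Col4a2 encode the chains of the type IV collagen found in nearly all basement membranes, in which more alpha1 than alpha2 chains enter each trimer. Col4a1 stood at 813, 736 and 834 in wild-type replicates 1, 2 and 3, with 966, 720.4 and 782 under the knockdown label. The highest and the lowest of the 6 values were both in the labelled knockdown group, and the groups overlapped. Group means were 794 ± 51.6 (SD, n = 3) for wild type and 823 ± 128 (SD, n = 3) for the labelled knockdown libraries, with a log2 difference of 0.04 (95% interval -0.31 to 0.39, limma adjusted p = 0.898). Col4a2 stood at 469, 424 and 465.5 against 526, 406 and 454. It was likewise highest in replicate 1 and lowest in replicate 2 of the labelled knockdown group, with a log2 difference of 0.02 (95% interval -0.28 to 0.33, limma adjusted p = 0.938). Leaving out replicate 1 of that group gave log2 differences of -0.08 for Col4a1 and -0.075 for Col4a2.

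A scaling of whole libraries by a factor cancels in the ratio of Col4a1 to Col4a2 within a library. The adjustment of the deposited values is unstated, and one that differs between genes would not cancel. It was 1.73, 1.73 and 1.79 in the wild-type libraries, with 1.84, 1.77 and 1.72 in the labelled knockdown libraries. This ratio therefore held within a narrow range in all 6 libraries, although the values of each gene ranged by 1.34 and 1.3 times. The SD of its log2 was 0.03 in wild type and 0.05 in the labelled knockdown libraries (n = 3 each). That of Lamb1 to Lamc1, genes on different chromosomes, was about as narrow, at 0.04 in each group. No spread was computed for other pairs of genes at such levels. The difference of the mean log2 ratio was 0.02 (exact two-sided permutation p = 0.7, adjusted p = 0.8 over 5 pairs). Among the 10902 other tested genes with a mean of at least 5, Col4a2 was the gene whose pattern over the 6 libraries was most like that of Col4a1, at rank 1. Likeness was the root mean square difference of log2(value + 1) centred on each gene's mean, which was 0.032 for Col4a2. The next were Fez2 (0.038), Fmnl3 (0.039), Mgat4a (0.043) and Dennd5a (0.045). Nid2 came at rank 14 (0.051) and Lama4 at rank 17 (0.053), Lamc1 at rank 200 and Hspg2 at rank 267. Lamb1 (rank 705), Nid1 (rank 1188), Col15a1 (rank 2057) and Col18a1 (rank 9609) were less alike.

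Col15a1 and Col18a1 encode the related collagens XV and XVIII, which carry both collagen and proteoglycan features and sit in the basement membranes of vessels and muscle. Collagen XVIII releases the fragment endostatin, an inhibitor of vessel growth, from its C-terminal end. Col15a1 lies on chromosome 4 (47208161 to 47313167, plus strand) and Col18a1 on chromosome 10 (77052178 to 77166548, minus strand) in GRCm38. Col15a1 stood at 309, 264 and 300.3 in the wild-type libraries, with 329.5, 327 and 342 in the labelled knockdown libraries. All 3 labelled knockdown values exceeded all 3 wild-type values, the only case among the 10 members. Such an absence of overlap, knockdown higher, was seen for 12.6% of all tested genes, and in either direction for 22.4%. Group means were 291 ± 23.9 (SD, n = 3) for wild type and 333 ± 8.38 (SD, n = 3) for the labelled knockdown libraries, and the log2 difference of 0.20 had a 95% interval of -0.05 to 0.44 (limma adjusted p = 0.391). The absence of overlap depended on the scaling. With each library rescaled to a sum of 1000000 the values were 316, 281 and 333 against 284, 339 and 343, which overlap, and the log2 difference was 0.05. With the other 3 scalings tried there was no overlap. The log2 difference was again 0.20 without the library labelled knockdown replicate 1.

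Col18a1 stood at 86.9, 108 and 88.7 in the wild-type libraries, with 56.3, 77.1 and 89.8 in the labelled knockdown libraries. It was lowest in the library labelled knockdown replicate 1 and highest in wild-type replicate 2, and the groups overlapped through replicate 3 of the labelled knockdown group. Group means were 94.6 ± 11.8 (SD, n = 3) for wild type and 74.4 ± 16.9 (SD, n = 3) for the labelled knockdown libraries, with a log2 difference of -0.36 (95% interval -0.79 to 0.07, limma adjusted p = 0.375). It was -0.18 without the library labelled knockdown replicate 1, and -0.51 when replicate 3 of that group was left out. With the heart muscle marker score of each library as a covariate it was -0.11, and with the endothelial score -0.19. In the annotation 8825 bases of Col18a1 overlap Slc19a1 on the opposite strand. The sources used here do not say whether counting used strand, so reads of that stretch may not be separable. Slc19a1 itself was listed at 2.40 to 4.89 in the 6 libraries.

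The ratio of Col15a1 to Col18a1 was 3.55, 2.44 and 3.39 in the wild-type libraries, with 5.86, 4.24 and 3.81 in the labelled knockdown libraries. Every labelled knockdown library had a higher ratio than every wild-type library, and a scaling of whole libraries by a factor cancels in the ratio. The mean log2 ratio was 1.62 ± 0.30 (SD, n = 3) against 2.19 ± 0.32 (SD, n = 3), a difference of 0.56. The exact two-sided permutation p was 0.1, the smallest this design allows, and 0.25 adjusted over the 5 pairs, so the difference did not pass. The difference was 0.38 without the library labelled knockdown replicate 1.

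**Figure D2:**
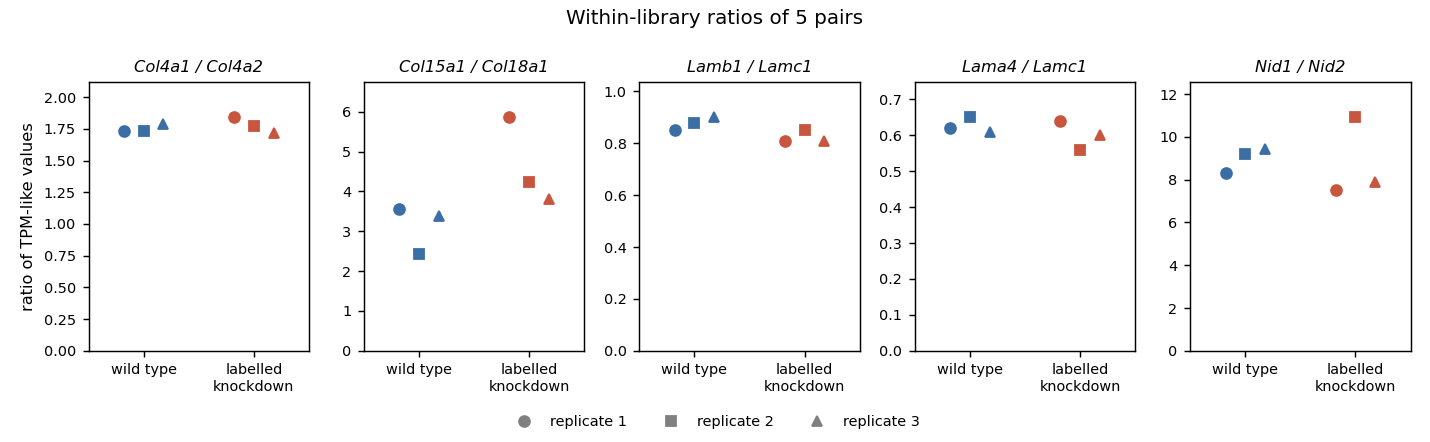
Ratio of the TPM-like values of 5 pairs of genes (vertical axes, from 0) in each wild-type (blue) and labelled knockdown library (red), with replicate 1 as circles, 2 as squares and 3 as triangles. The ratio of Col4a1 to Col4a2 stays between 1.72 and 1.84, while that of Col15a1 to Col18a1 is 2.44 to 3.55 in wild type and 3.81 to 5.86 in the labelled knockdown libraries.

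Lama4, Lamb1 and Lamc1 encode the alpha4, beta1 and gamma1 chains, which together form the laminin typical of endothelial basement membranes. The beta1 and gamma1 chains are shared with other laminins. Lama4 lies on chromosome 10 (38965515 to 39110188, plus strand), Lamb1 on chromosome 12 (31265234 to 31329644, plus strand) and Lamc1 on chromosome 1 (153218922 to 153332786, minus strand). Lama4 stood at 89.85, 89.2 and 99.3 in the wild-type libraries, with 106.5, 83.7 and 92.8 in the labelled knockdown libraries. As for Col4a1, replicates 1 and 2 of the labelled knockdown group held the highest and the lowest value, and the log2 difference was 0.02 (95% interval -0.25 to 0.29). It was -0.07 without the library labelled knockdown replicate 1. Lamb1 stood at 123, 120.2 and 146 against 135, 126 and 125. It was highest in wild-type replicate 3, with the labelled knockdown values inside the wild-type range, and the log2 difference was -0.01 (95% interval -0.26 to 0.24), or -0.04 when the library labelled knockdown replicate 1 was left out. Lamc1 stood at 144.5, 137 and 162 against 167, 148 and 154. The groups overlapped, and the log2 difference was 0.08 (95% interval -0.17 to 0.33). Its highest value was in replicate 1 of the labelled knockdown group, without which the difference was 0.03. The limma adjusted p-values were 0.941 for Lama4, 0.967 for Lamb1 and 0.711 for Lamc1.

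Within each library the gamma1 gene exceeded the beta1 gene, and both exceeded the alpha4 gene. The ratio of Lamb1 to Lamc1 was 0.85, 0.88 and 0.90 in the wild-type libraries, with 0.81, 0.85 and 0.81 in the labelled knockdown libraries. These ranges met at about 0.85, and at full precision the labelled knockdown ratios were all lower (difference of the mean log2 ratio -0.09, exact two-sided permutation p = 0.1, adjusted p = 0.25 over 5 pairs). The ratio of Lama4 to Lamc1 was 0.62, 0.65 and 0.61 against 0.64, 0.56 and 0.60, which overlap (difference of the mean log2 ratio -0.06, exact two-sided permutation p = 0.4, adjusted p = 0.667). Neither difference passed.

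Nid1 and Nid2 encode nidogen 1 and nidogen 2, which bind the laminin gamma1 chain and type IV collagen. Nid1 lies on chromosome 13 (13437551 to 13512269, plus strand) and Nid2 on chromosome 14 (19751265 to 19811787, plus strand). Nid1 stood at 268, 259 and 289.6 in the wild-type libraries, with 285.5, 283 and 243.5 in the labelled knockdown libraries. Its lowest value was in replicate 3 of the labelled knockdown group and its highest in wild-type replicate 3, with a log2 difference of -0.01 (95% interval -0.27 to 0.25, limma adjusted p = 0.968), or -0.05 without replicate 1 of the labelled knockdown group. Nid2 stood at 32.25, 28.1 and 30.6 against 38.0, 25.9 and 30.9. It had the wider spread, with the labelled knockdown values on both sides of the wild-type values, and a log2 difference of 0.04 (95% interval -0.30 to 0.38, limma adjusted p = 0.892). That difference was -0.09 with replicate 1 of the labelled knockdown group left out. Nid1 exceeded Nid2 by 8.30, 9.21 and 9.45 times in the wild-type libraries, and by 7.52, 10.91 and 7.87 times in the labelled knockdown libraries, ranges that overlap (difference of the mean log2 ratio -0.05, exact two-sided permutation p = 0.8, adjusted p = 0.8 over 5 pairs). Nid2 overlaps Rtraf on the opposite strand over 437 bases, and Rtraf was listed at 179 to 206, well above Nid2.

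Hspg2 encodes perlecan, the heparan sulfate proteoglycan of basement membranes that also binds growth factors. It lies on chromosome 4 (137468769 to 137570630, plus strand). It stood at 141, 139 and 132.5 in the wild-type libraries, with 164, 133 and 149 in the labelled knockdown libraries. Replicates 1 and 3 of the labelled knockdown group were above all wild-type values and replicate 2 was within them. Group means were 137 ± 4.31 (SD, n = 3) for wild type and 149 ± 15.7 (SD, n = 3) for the labelled knockdown libraries, with a log2 difference of 0.11 (95% interval -0.14 to 0.36, limma adjusted p = 0.611). It was 0.03 without the library labelled knockdown replicate 1.

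**Figure D3:**
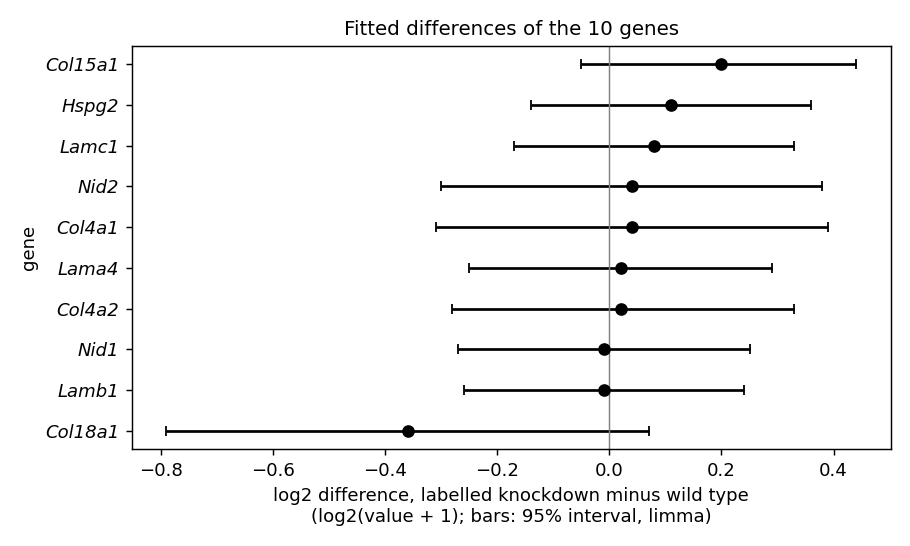
Fitted log2 difference of each gene, labelled knockdown minus wild type (horizontal axis), with its 95% interval from limma. Every interval includes 0, the widest being that of Col18a1 (-0.79 to 0.07) and the highest estimate that of Col15a1 (0.20).

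The highest and the lowest library of each member were counted in the deposited values. The library labelled knockdown replicate 1 was the highest of the 6 for 6 of 10 members (Col4a1, Col4a2, Lama4, Lamc1, Nid2 and Hspg2), where it was the highest for 25.8% of all tested genes. It was the lowest for 1 member, Col18a1, where it was the lowest for 28.2% of all tested genes. Replicate 2 of the same group was the lowest for 4 members (Col4a1, Col4a2, Lama4 and Nid2), a count without a computed share over all tested genes. The counts for replicate 1 depended on the scaling: with each library rescaled to a sum of 1000000, replicate 1 was the highest for 0 members and the lowest for 3. With median-ratio scaling or quantile normalization it was again the highest for 6, and with mitochondrial genes left out for 7. Shares over all tested genes were not computed for these scalings.

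Markers of cells that build basement membranes differed between the same libraries. Of 15 endothelial markers, 14 had a higher mean in the labelled knockdown libraries and 0 passed the test (median log2 difference 0.42). Their summed level was 1147 to 1188 in wild type, and 2222, 1053 and 1620 in replicates 1, 2 and 3 of the labelled knockdown group, so replicate 1 was highest and replicate 2 lowest, as for Col4a1. The endothelial cadherin gene Cdh5 was at 163, 152 and 162 against 303, 129.8 and 196. The endothelial median was 0.17 when replicate 1 of that group was left out. Of 10 pericyte markers 8 had a higher mean (median 0.06), and their sum was 1090 to 1204 in wild type against 1511, 1024 and 1258. When the library labelled knockdown replicate 1 was left out, 5 pericyte markers were higher and 5 lower (median 0.00), and with each library rescaled to a sum of 1000000 4 were higher and 6 lower (median -0.08). No defining marker of these lists was listed at 0. In bulk tissue fewer cells of a type and less RNA per cell cannot be told apart.

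Markers of other cells were set beside the members in the same way. All 11 heart muscle markers had a higher mean in the labelled knockdown libraries (median 0.71), with replicate 1 highest for the list. Without that library 8 were higher and 3 lower, and the median was 0.21. All 10 macrophage markers had a lower mean (median -0.72), with sums of 7591 to 10240 in wild type against 3531, 7078 and 5954. Without the same library all 10 were again lower, with a median of -0.45. For the 10 fibroblast markers the median was -0.02 (3 higher, 7 lower), and their sums were 16070 to 18740 against 12120, 18610 and 16560; without that library 5 were higher and 5 lower (median 0.06). The 7 smooth muscle markers had a median of -0.22, with sums of 1321 to 1692 against 799.5, 1207 and 1303, and a median of -0.07 without that library. The 7 tested adipocyte markers (median -2.89) and the 6 epicardial markers (median -1.24) varied most between libraries. Cidec, Plin1 and Retn were listed at 0 in the library labelled knockdown replicate 2. In replicate 1 of that group they stood at 0.31, 0.13 and 0.13, below its rounding step of 1.163. The adipocyte sums were 838, 1742 and 1002 in wild type against 1037, 229.9 and 2042. Fabp4 alone was 1032 of the sum in replicate 1 and 218.2 in replicate 2 of the labelled knockdown group. Averaged over the 7 tested markers, log2(value + 1) minus its mean over the 6 libraries was -2.85 and -2.93 in these libraries. The epicardial sums were 80.9, 118.5 and 103 in wild type against 18.7, 31.5 and 169. Leaving out replicate 1, 2 or 3 of the labelled knockdown libraries gave epicardial medians of -0.40, -1.18 and -2.25, and adipocyte medians of -1.93, -1.90 and -4.67. Of 5 tested Schwann cell markers 3 had a higher mean (median 0.09, or 0.14 without the library labelled knockdown replicate 1). None of these markers passed the test over all 6 libraries. When replicate 3 of the labelled knockdown group was left out, 5 of the 7 adipocyte markers passed (limma, Benjamini-Hochberg adjusted p under 0.05). The part of any cell type in the members' levels was not tested.

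**Figure D4:**
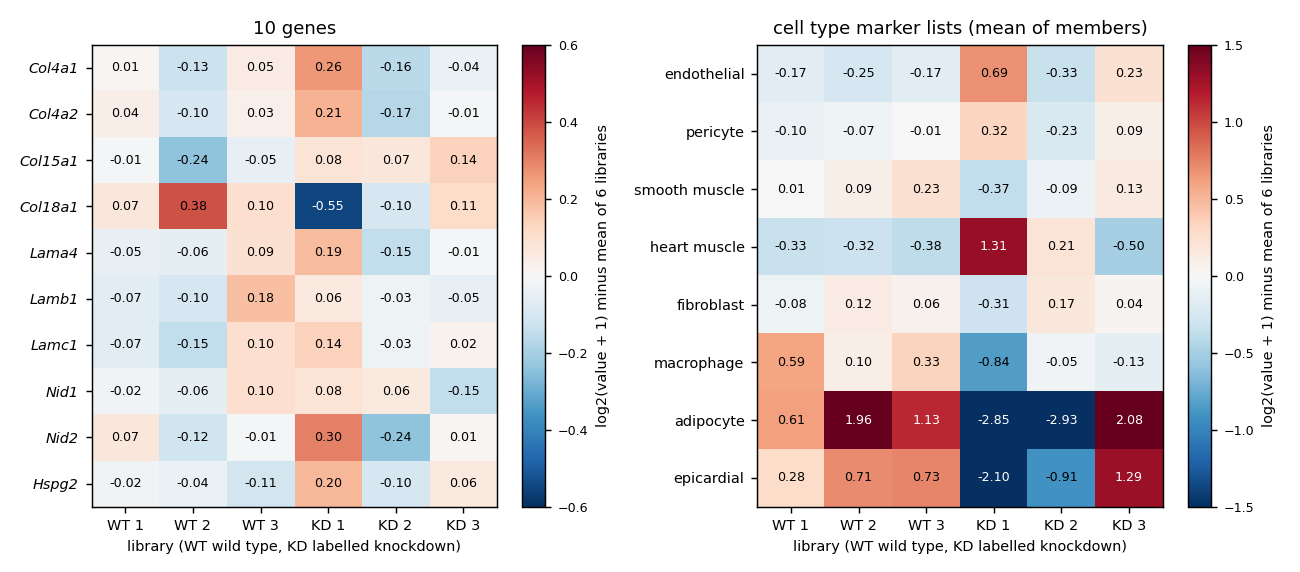
Left, log2(value + 1) of each of the 10 genes minus its mean over the 6 libraries; right, the same averaged over the members of 8 cell type marker lists; numbers give the values and colours saturate at 0.6 (left) and 1.5 (right). The library labelled knockdown replicate 1 (KD 1) has Col4a1 at 0.26 and Col18a1 at -0.55, beside an endothelial score of 0.69, a heart muscle score of 1.31 and a macrophage score of -0.84.

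Other structural genes of basement membranes were mixed. Of 27 listed, 24 were in the table and 20 were tested; 13 had a higher and 7 a lower mean (median 0.09), and 0 passed. With the rescaling above 7 were higher and 12 lower of 19 tested (median -0.09, beside -0.13 over all genes), and leaving out the library labelled knockdown replicate 1 gave a median of 0.03. Sparc, which encodes a matricellular protein that binds type IV collagen, was the most abundant at 9066, 9333 and 9661 against 7075, 9460 and 8495 (log2 difference -0.17, SE 0.24). Tinagl1 stood at 118, 129.6 and 108 against 138, 75.0 and 146, overlapping (-0.04, SE 0.25). Lamb2, which encodes the laminin beta2 chain of mature vessels and muscle, stood at 89.8, 104.2 and 79.9 against 122.5, 104.0 and 112.8. Its log2 difference was 0.31 (SE 0.12, limma adjusted p = 0.322), and the groups overlapped only through replicate 2 of each. Lama5, the alpha5 chain gene, was at 0.29 (SE 0.14, limma adjusted p = 0.376). Smoc1, which encodes a secreted calcium-binding protein, was lower without overlap at -0.55 (SE 0.19, limma adjusted p = 0.300). Col4a6, at 1.3 to 4.6 in the 6 libraries, lay within a few rounding steps of 0.889 to 1.163 (-0.66, SE 0.26, limma adjusted p = 0.317). Absence of overlap, knockdown lower, was seen for 9.88% of all tested genes and for 1 of these 20.

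Receptors for basement membrane proteins were evenly split. Of 16 tested, 8 had a higher and 8 a lower mean (median 0.01), and 0 passed. With the rescaling above 4 were higher and 12 lower (median -0.11, beside -0.13 over all genes), and the median was -0.04 when the library labelled knockdown replicate 1 was left out. Itgb1, the beta chain gene of the laminin- and collagen-binding integrins, stood at 710.1, 680.0 and 840.3, against 627, 689.6 and 562, a log2 difference of -0.25 (SE 0.14). The collagen receptor gene Ddr1 was lower without overlap (-0.35, SE 0.17), and Bcam, a laminin alpha5 receptor gene, was at 0.41 (SE 0.22). The muscle sarcoglycan gene Sgca stood at 11.7, 12.2 and 12.3 against 39.8, 22.1 and 13.0, a log2 difference of 0.86 (SE 0.34), highest in the library with the most heart muscle marker signal. The limma adjusted p-values of these 4 genes ran from 0.322 for Sgca to 0.414 for Itgb1.

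Genes for processing and assembly of collagen were mostly lower by group means. Of 18 tested, 15 had a lower mean (median -0.15) and 0 passed. Colgalt1, which encodes a collagen galactosyltransferase, stood at 99.7, 85.6 and 113 against 65.6, 79.9 and 69.8, without overlap (log2 difference -0.46, SE 0.13, limma adjusted p = 0.296). Loxl2, a crosslinking enzyme gene, was at -0.36 (SE 0.19). Ppib (-0.25, SE 0.13) and P4hb (-0.29, SE 0.17), which encode folding and prolyl hydroxylase subunits of the endoplasmic reticulum, did not overlap. Of the 18 genes, 5 were lower without overlap, beside 9.88% of all tested genes. These enzymes also act on fibrillar collagens. The median was -0.08, with 13 of 18 lower, when the library labelled knockdown replicate 1 was left out.

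Turnover genes had the lowest median of the 4 partner lists. The list holds degrading enzymes and also protease inhibitors. Of the inhibitor genes, Timp1 (log2 difference -0.54), Timp2 (-0.33) and Timp3 (-0.48) had lower means and Timp4 (1.04) a higher mean. Of 20 tested, 17 had a lower mean (median -0.42) and 0 passed, while 5 had an unadjusted p under 0.05 in that direction, beside 6.55% of all tested genes. That count varied with the library left out. It was 0 without wild-type replicate 3, where 403 of 14365 tested genes met the same threshold. In that setting 17 of the 20 were again lower (median -0.35). The count was 9 without the library labelled knockdown replicate 2, where 995 of 14019 tested genes met the threshold. Leaving out any other library gave 4 to 7. With the heart muscle marker score as a covariate the count was 1 and the median -0.16. With the endothelial score the count was 0 and the median -0.21. In each of these settings 17 of the 20 were again lower. Of all 14025 genes, 361 met the threshold with the heart muscle score and 346 with the endothelial score. Mmp14, which encodes a membrane-bound matrix protease, stood at 370.2, 313 and 425 against 180.0, 284 and 290.4 (log2 difference -0.57, SE 0.21, limma adjusted p = 0.310). Mmp19 (-0.79, SE 0.27), the serine protease gene Htra1 (-0.51, SE 0.19) and the heparanase gene Hpse (-0.68, SE 0.26) were also lower without overlap. Heparanase cuts the heparan sulfate chains that perlecan carries. Without the library labelled knockdown replicate 1 the median of the list was -0.21, with 17 of 20 again lower. Whether this list differs from the 10 structural genes was not tested. Several of its genes are also expressed by macrophages, whose markers had lower means in the same libraries, and their part in these values was not tested.

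**Figure D5:**
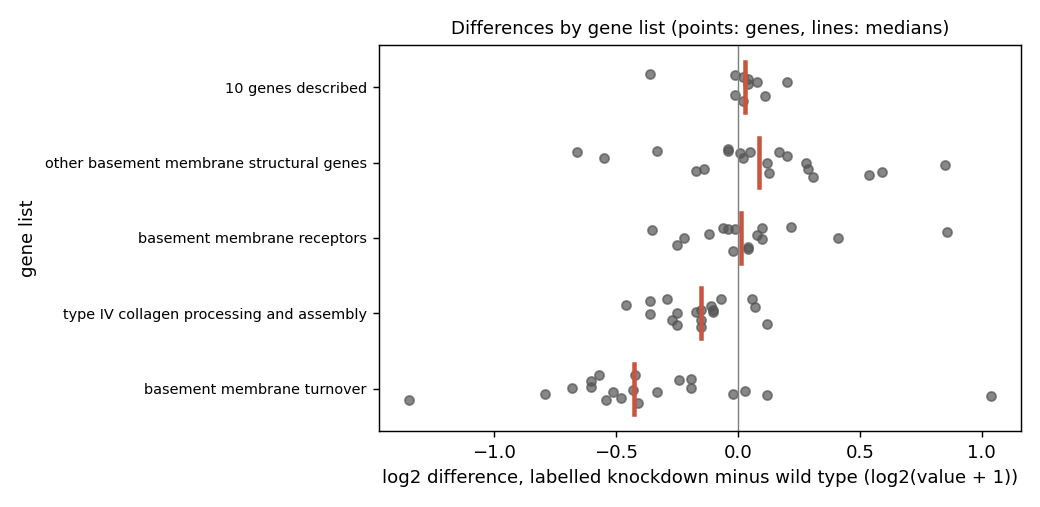
Log2 difference of each tested gene, labelled knockdown minus wild type (horizontal axis), for the 10 genes and 4 lists of partner genes; points are genes, spread vertically only for legibility, and red lines are medians. The medians are 0.03 for the 10 genes, 0.09 for other structural genes, 0.01 for receptors, -0.15 for processing and -0.42 for turnover genes.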

How the data were processed

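Poly(A) RNA libraries of infarcted mouse myocardium were used, 3 wild type and 3 labelled Itih5 knockdown. Per the submitters' processing notes the build was mm10; the sources used here do not give the aligner, quantifier or annotation. The authors deposited 1 score per gene and library, named TPM in the file name but rescaled between libraries by an unstated adjustment. Library sums ran from 901563 to 1159657. Most low values lay near multiples of a step of 0.889 to 1.163. In the library labelled knockdown replicate 1 some lay well below its step of 1.163, such as Plin1 at 0.13. It listed 212 rows at 0, against 731 to 1082 in the other libraries. Smaller departures occurred elsewhere, such as Timp4 at 0.75 in wild-type replicate 3, where the step was 0.889. The adjustment may therefore not be a single factor per library. The table holds no counts, so depth is unknown and no count model was used; the test had been planned for normalized values and was kept.

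Of 16205 rows, 6 with a repeated symbol were left out. Genes averaging at least 1 over the 6 libraries (14025) were compared as log2(value + 1) with limma 3.58.1 in R 4.3.3 (intensity trend, no covariate, Benjamini-Hochberg adjustment over all tested genes, threshold 0.05). In simulated data with the fitted spread of these 14025 genes, 78.4% of genes changed by 1 log2 unit and 95.5% of those changed by 2 were recovered. There were 13 false calls. The simulated noise was independent between genes and held no shifts shared by many genes of a library. These shares therefore do not give the power of the test in the real libraries. Ratios of 5 pairs were compared by exact permutation. Coordinates are from GENCODE M21 and start windows from RefSeq. Alternatives were pseudocount, filter, scaling, trend, library weights, replicate block, marker scores as covariates and leaving out each library.

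The members and lists were chosen with earlier results of these data known. All members are described. Of each partner list the up to 4 genes with the smallest unadjusted p are named and, of other structural genes, also the 3 with the highest mean. Cdh5, Slc19a1, Rtraf, Fabp4, Timp1, Timp2, Timp3 and Timp4 were named after their values were seen.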

Additional observations from a re-analysis of the deposited data

How the results depend on the processing

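No member passed the limma test under any of the 19 alternatives. Col15a1 stayed above 0 and Col18a1 below 0 in all 19, at 0.053 to 0.243 and -0.508 to -0.109. The value nearest 0 came from rescaling for Col15a1 and from adjusting for the heart muscle score for Col18a1, which was -0.188 adjusting for the endothelial score and -0.231 under library weights. Itih5 and the other 8 members, whose differences were small, changed sign under at least 1. Values of the opposite sign were, with each library rescaled to a sum of 1000000, Col4a1 (-0.102), Col4a2 (-0.12), Lama4 (-0.123), Lamc1 (-0.062), Nid2 (-0.096), Hspg2 (-0.034); with quantile normalization, Lamb1 (0.036), Nid1 (0.01); with mitochondrial genes left out, Lamb1 (0.037), Nid1 (0.037); with library weights, Col4a1 (-0.045), Col4a2 (-0.064), Lama4 (-0.015), Lamb1 (0.013), Nid1 (0.001), Nid2 (-0.088); adjusting for the heart muscle score, Col4a1 (-0.084), Col4a2 (-0.069), Lama4 (-0.065), Nid2 (-0.084); and adjusting for the endothelial score, Col4a1 (-0.126), Col4a2 (-0.127), Lama4 (-0.117), Nid2 (-0.169), Hspg2 (-0.009), Itih5 (-0.048). The causes were not tested, beyond that rescaling moved the median of all genes to -0.13.

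Leaving out each library in turn gave -0.079 to 0.132 for Col4a1, -0.075 to 0.112 for Col4a2, -0.071 to 0.101 for Lama4, -0.062 to 0.078 for Lamb1, -0.05 to 0.065 for Nid1, -0.093 to 0.173 for Nid2, 0.128 to 0.241 for Col15a1, -0.508 to -0.176 for Col18a1, 0.027 to 0.149 for Lamc1, 0.034 to 0.186 for Hspg2 and 0.062 to 0.524 for Itih5. It gave -0.005 to 0.041 for the log2 ratio of Col4a1 to Col4a2 and -0.222 to 0.047 for that of Nid1 to Nid2. Genes lower over the whole table ranged from 0 to 13, at 2 when wild-type replicate 2 was left out and 13 when replicate 3 of the labelled knockdown group was, none of them a member and 5 of the 13 adipocyte markers. Genes higher were 0 throughout.

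With the replicate number as a block, 0 genes passed and the unadjusted counts were 1039 higher and 764 lower, against 1162 and 919. The correlations of deviations between same-numbered libraries were 0.0559, 0.0608 and 0.143. Each labelled knockdown library was closest to the wild-type library of its own number. Wild-type replicate 1 was closest to replicate 2 of the other group (0.0595). Whether the numbers pair the libraries is not stated, and the main test took them as unpaired. With the block, counts at unadjusted p under 0.05 (limma) rose from 5 to 8 for lower turnover genes and from 1 to 4 for higher endothelial markers. They rose from 0 to 5 for lower adipocyte markers and fell from 7 to 5 for lower macrophage markers. Rescaling to a sum of 1000000 changed the unadjusted counts to 458 higher and 1398 lower. Without counts the depth behind these values, and its limit on precision, cannot be given.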
